A study of Homo sapiens with 8 samples.

Results

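The clustered protocadherin genes are 53 protein-coding genes on chromosome 5 whose symbols begin with PCDHA (15 genes, the alpha cluster), PCDHB (16 genes, beta) or PCDHG (22 genes, gamma), out of 19970 protein-coding genes annotated by GENCODE on chromosomes 1 to 22 and X. Every ATAC-seq peak from 50000 bp before the first to 50000 bp after the last of them was taken (GRCh38, chr5:140736136-141562977), overlapping peaks of the 8 libraries were merged, and each merged region was assigned to the nearest first exon. This gave 95 regions of 285909 in all, with 35 nearest to an alpha, 23 to a beta and 37 to a gamma first exon. They were 200 to 1727 bp wide, with a median of 374 bp. The clusters lie one after the other on the forward strand, and their first exons span 183192 bp in alpha, 197992 bp in beta and 161187 bp in gamma.

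Clustered protocadherins are cell-surface adhesion proteins that bind identical partners on facing membranes and are best known for telling neurons apart. In the alpha and gamma clusters each gene has its own promoter and its own large variable first exon, which is spliced to constant exons shared by the whole cluster, whereas beta genes have no constant exons. Promoter choice is largely random from cell to cell for most genes and depends on CTCF and cohesin, while the C-type genes at the ends of the alpha and gamma clusters (PCDHAC1, PCDHAC2, PCDHGC3, PCDHGC4 and PCDHGC5) are regulated differently.

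ATAC-seq marks open DNA by the insertions of a transposase. It was performed on cells of RUES2, an established line of human embryonic stem cells, differentiated towards heart muscle in monolayer. Each of 4 groups has 2 replicate libraries and no genetic change is named for any. The group called hESC holds undifferentiated cells of day 0, MES holds mesoderm of day 2, CP stands for day 5 (cardiac progenitors) and CM for day 14 (cardiomyocytes). All groups had been exposed to the Wnt activator CHIR-99021 from the day before day 0, so the hESC group had received it as well. From day 0 the other groups received a higher dose in a medium with albumin and ascorbic acid, then the Wnt inhibitor Xav-939 before CP, and, for CM, B27 medium. A value given here is the fold of a peak's pileup over its local background, as called by MACS2 in each library on its own. A peak that is not in a list did not pass the caller's q-value of 0.01 there, so its absence is not a measured level of 0. The cultures hold mixtures of cells, so fewer cells with an open site and less open sites in all cells cannot be told apart.

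The libraries held 55777 to 156179 peaks on chromosomes 1 to 22 and X, with the fewest in CM replicate 2, and the window held 0.0325% to 0.0601% of them. Markers were followed by a peak within 500 bp of the start. NANOG, a pluripotency factor, had one in the 4 hESC and MES libraries and in none of CP and CM. Of the CP list, TBX5, a cardiac T-box factor, had one in the 2 CM libraries alone, GATA4 in 7 libraries, and ISL1 and HAND1 in all 8. Of the CM list, MYH6, which encodes a cardiac myosin, had one in CP replicate 2 and both CM libraries, TNNT2 in these and hESC replicate 2, TTN in the CP and CM libraries and hESC replicate 2, MYL7 in the MES, CP and CM libraries, and NPPA in CM replicate 1 alone. ACTN2 had one in all 8, lowest in CM (6.99 and 7.26-fold, against 9.22 and 8.49 at hESC). POU5F1 had none in any library. Of the other lists, the endothelial CDH5 had a peak in 0 libraries and PECAM1 in 1, KDR in 8, the neural PAX6 in 7 and SOX1 in 8, the endodermal SOX17 in 8 and FOXA2 in 7, and, of the smooth muscle and fibroblast list, ACTA2 in the 4 CP and CM libraries and COL1A1 in both CP libraries, hESC replicate 2 and MES replicate 2. SOX2, LIN28A, TBXT, EOMES, MESP1 and MIXL1 had start peaks in all 8 libraries, so these starts did not separate the stages.

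The promoters are shown first, because nearly all of them carry the same 4 letters at nearly the same place. CGCT is the core of a conserved element of clustered protocadherin promoters. The 120 bases before the start are printed below from the RefSeq promoters of GRCh38.p14, 5′ to 3′ on the forward strand, with every CGCT in capitals. Of these bases, 120 at PCDHB2, 74 at PCDHA5 and 19 at PCDHGC3 also lie in an annotated exon. They are of PCDHAC1 (chr5:140926179-140926298), PCDHB2 (chr5:141094495-141094614) and PCDHGC3 (chr5:141475846-141475965), which had a peak in all 8 libraries, of PCDHB14 (chr5:141223223-141223342), which had one in 6, and of PCDHA5 (chr5:140821493-140821612) and PCDHGA9 (chr5:141402658-141402777), which had one in none.
PCDHAC1: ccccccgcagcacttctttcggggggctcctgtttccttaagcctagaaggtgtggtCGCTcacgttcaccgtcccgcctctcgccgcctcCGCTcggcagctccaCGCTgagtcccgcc
PCDHA5: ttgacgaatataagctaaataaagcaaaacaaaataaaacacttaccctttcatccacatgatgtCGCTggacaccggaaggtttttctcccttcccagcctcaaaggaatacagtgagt
PCDHB2: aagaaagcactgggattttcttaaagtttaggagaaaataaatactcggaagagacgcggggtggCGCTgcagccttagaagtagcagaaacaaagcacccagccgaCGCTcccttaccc
PCDHB14: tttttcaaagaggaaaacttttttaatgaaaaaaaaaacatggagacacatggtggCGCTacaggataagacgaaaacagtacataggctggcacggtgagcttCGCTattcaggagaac
PCDHGC3: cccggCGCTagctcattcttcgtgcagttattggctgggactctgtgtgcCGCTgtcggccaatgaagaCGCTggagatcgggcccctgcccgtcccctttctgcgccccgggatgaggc
PCDHGA9: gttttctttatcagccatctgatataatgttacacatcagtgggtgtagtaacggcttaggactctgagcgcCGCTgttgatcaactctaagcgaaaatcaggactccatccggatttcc

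CGCT on the forward strand of the last 100 bases before the start was found in 44 of the 47 member promoters that the RefSeq table holds (93.6%) and in 28.1% of all 35116 promoters in it. In the 44, the copy nearest to 60 bases before the start lay 11 to 95 bases before it, with a median of 56, and 42 of them lay within 35 to 85 bases. Where a promoter held several copies, this choice draws the position towards 60. Positions were not counted over all promoters. The share was 12 of 13 in alpha, 13 of 14 in beta and 19 of 20 in gamma. It did not separate open from closed starts: CGCT was present in 8 of 8 promoters of first exons with a peak in all libraries, in 23 of 26 of those with a peak in 1 to 7, and in 13 of 13 of those with none. Counted on both strands over the 300 bases of each entry, CGCT was in 46 of 47 member promoters and in 70.0% of all promoters. A loose form of the core of the CTCF recognition sequence (CC, 3 bases of any kind, AG, 2 bases of any kind, GGC) was found on either strand in 1 of the 47 (PCDHB9) and in 10.6% of all promoters. Other forms of a CTCF site were not searched for, and CTCF binding was not measured. The count therefore does not show how many of these promoters hold a CTCF site. The median GC content was 54.5% in promoters of first exons open in all libraries, 39.7% in those open in 1 to 7, and 36.3% in those open in none, against 58.7% over all promoters. PCDHA3, PCDHA13, PCDHB6, PCDHB11, PCDHGA12 and PCDHGC5 have no entry in the table. The RefSeq start of PCDHGB2, a promoter without CGCT in the last 100 bases, lies 142 bases from the start used for its peaks.

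Protocadherin first exons carried peaks at their starts less often than gene starts in general, and on the lists as deposited fewer of them did so in the CM libraries than in those of the earlier stages. On lists cut to an equal number of peaks this order did not hold, with 11 and 10 first exons at CM against 15 and 8 at CP and 11 and 13 at MES. A first exon was counted when a peak lay within 500 bp of its start. In hESC replicates 1 and 2, 30 and 35 of the 53 first exons had one, followed by 21 and 30 at MES, 22 and 18 at CP, and 13 and 10 at CM. These are 56.6% and 66.0% at hESC, 39.6% and 56.6% at MES, 41.5% and 34.0% at CP, and 24.5% and 18.9% at CM. Of all protein-coding starts, 73.9% and 77.4% had a peak in hESC, 74.6% and 76.7% at MES, 74.4% and 74.6% at CP, and 73.2% and 68.3% at CM. Both CM libraries were lower than all 6 earlier libraries, and both hESC libraries were at or above every other, with MES replicate 2 equal to hESC replicate 1. Both CM libraries also held fewer peaks in all than every earlier library. The libraries held 103118 and 156117 peaks at hESC, 108340 and 156179 at MES, 99789 and 120133 at CP, and 92731 and 55777 at CM. Apart from the lists of equal number above, the part of peak number in the order was not tested.

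**Figure D1:**
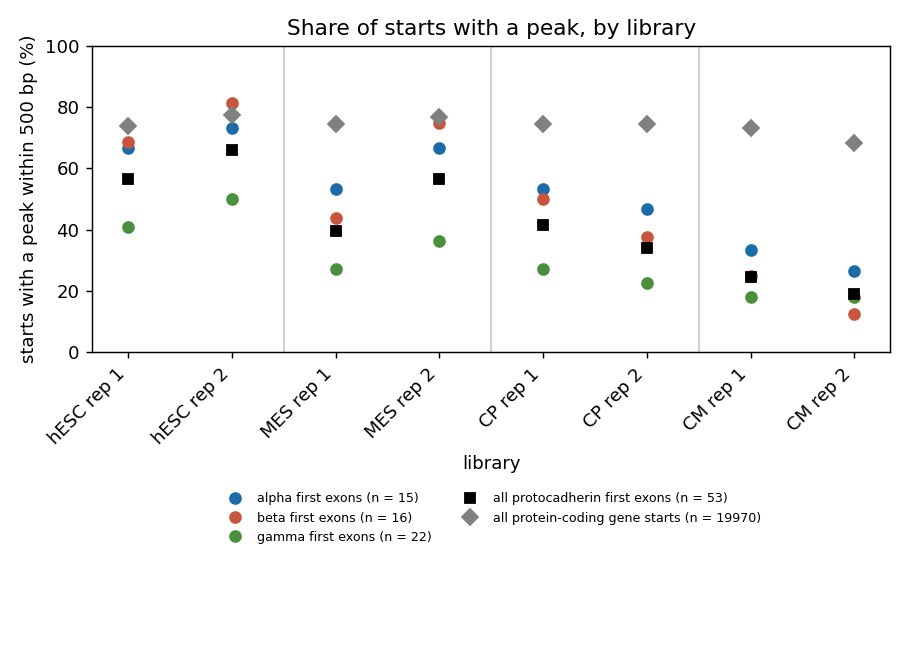
Percentage of starts with a peak within 500 bp (vertical axis, 0 to 100%) in each of the 8 libraries (horizontal axis), for alpha, beta and gamma first exons, all 53 protocadherin first exons and all 19970 protein-coding gene starts. The protocadherin share goes from 56.6% and 66.0% at hESC to 24.5% and 18.9% at CM, while that of all gene starts stays between 68.3% and 77.4%.

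Taken over both libraries of a stage, 29 first exons were open in hESC, 20 at MES, 16 at CP and 10 at CM, where the share of all protein-coding starts was 73.4%, 73.8%, 72.6% and 67.8%. The alpha cluster had 9, 7, 7 and 4 of 15, the beta cluster 11, 7, 4 and 2 of 16, and the gamma cluster 9, 6, 5 and 4 of 22. Within alpha, 10 of the 13 ordinary first exons had a peak in at least 1 library, and within beta 14 of 16 did. In gamma, the A and B subfamilies stood apart, with a peak in at least 1 library at 4 of 12 GA first exons and at 5 of 7 GB first exons. The GA first exons in both libraries numbered 4 at hESC, 1 at MES, 0 at CP and 0 at CM, and the GB first exons 3, 3, 3 and 2. These are descriptions of the subfamilies, and their difference was not tested.

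Of the 17 first exons with a peak in neither hESC library, 0 had one in both CM libraries, where 1.81% of such starts over all genes did. With 17 first exons, 0 is near that share. From hESC to MES, MES to CP and CP to CM likewise 0 went from neither library to both. The shares over all gene starts were not counted for these 3 steps. In the other direction, 18 of the 29 first exons open in both hESC libraries (62.1%) were in neither CM library, against 3.77% of the 14655 gene starts open in both hESC libraries. They were PCDHA6, PCDHA9, PCDHA10, PCDHA11 and PCDHA13 in alpha, PCDHB3, PCDHB5, PCDHB7, PCDHB9, PCDHB11, PCDHB14 and PCDHB16 in beta, and PCDHGA2, PCDHGA3, PCDHGA10, PCDHGA11, PCDHGB1 and PCDHGB2 in gamma. A further 3 (PCDHA2, PCDHB1 and PCDHB10) had a peak in CM replicate 1 and none in CM replicate 2. The remaining 8 were open in both CM libraries, where 91.2% of such starts over all genes were. With CM replicate 1 as the only CM library 18 of the 29 were absent, against 4.13% of all such starts, and with CM replicate 2, the library with the fewest peaks, 21 were, against 8.47%.

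**Figure D2:**
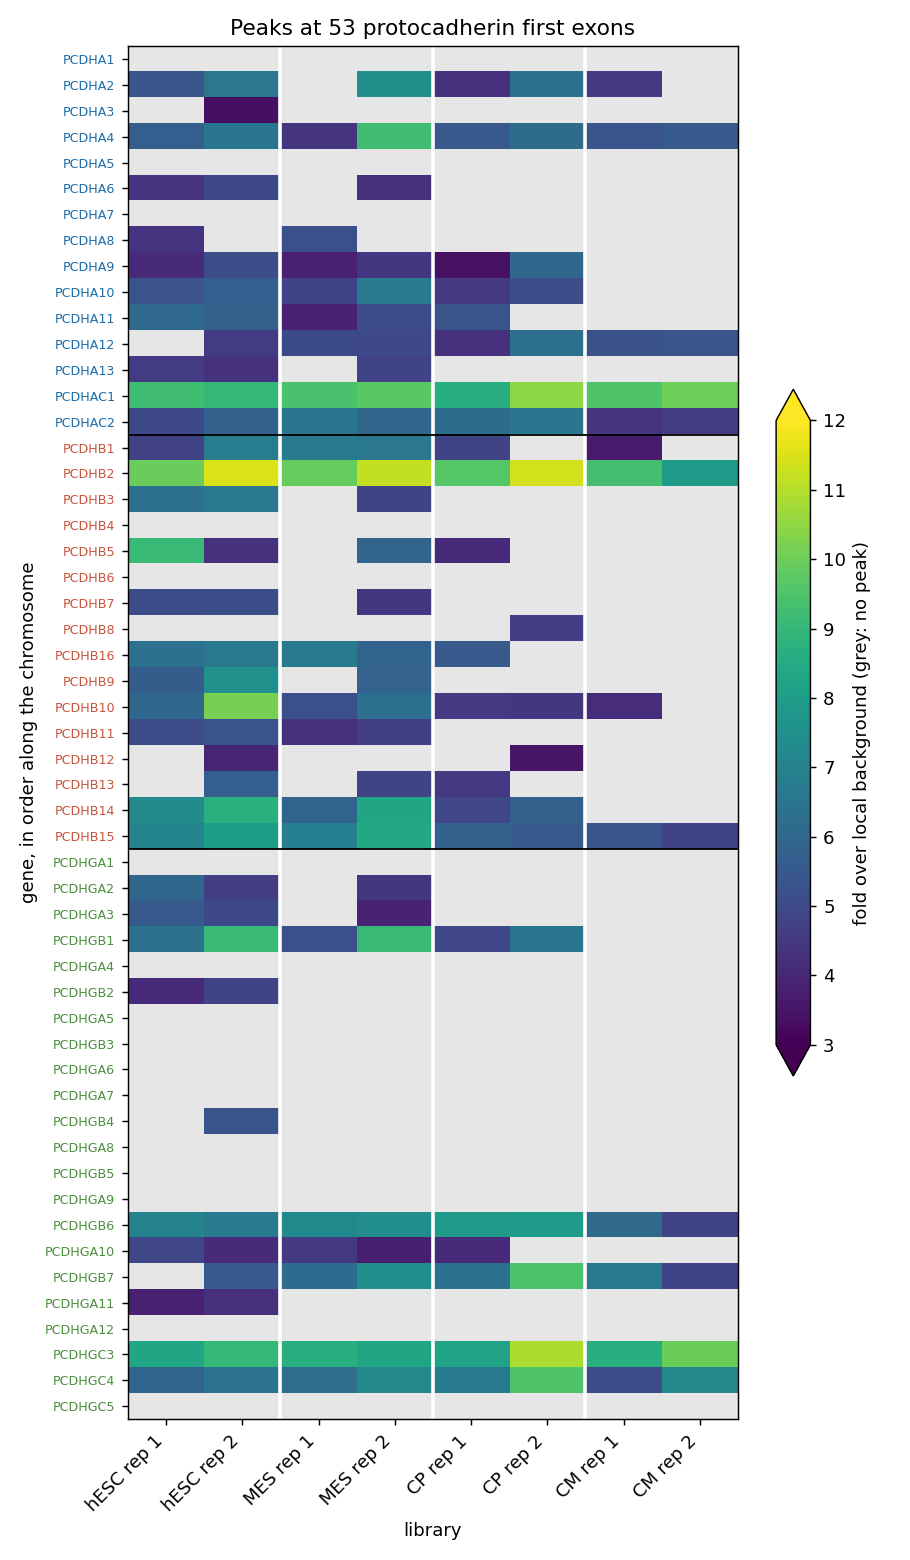
Fold over local background of the highest peak within 500 bp of the start (colour, 3 to 12) at the 53 first exons in chromosomal order (rows, with alpha, beta and gamma separated by lines) in the 8 libraries (columns); grey means that no peak was called. The 8 rows filled in all libraries include PCDHAC1, PCDHB2 and PCDHGC3, 16 rows are grey throughout, and 18 rows filled in both hESC columns are grey in both CM columns.

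Complete changes between neighbouring stages were few. From hESC to MES, 2 of 29 first exons (PCDHGB2 and PCDHGA11) went from both libraries to neither, against 0.553% of all starts. From MES to CP it was 1 of 20 (PCDHB11), against 0.971%, and from CP to CM 4 of 16 (PCDHA9, PCDHA10, PCDHB14 and PCDHGB1), against 2.28%. The other 11 of the 18 passed through a stage with a peak in 1 of its 2 libraries.

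With overlapping ranges, the first exons lost in CM had a lower median fold in hESC than those kept. The mean fold of the lost ones over the hESC libraries was 4.05 to 7.99 with a median of 5.31. That of the 8 kept in both CM libraries was 5.39 to 10.7 with a median of 7.20. Set beside other gene starts of the same hESC level, a way of counting added after the data were seen, the shares absent from CM were as follows. Below 5-fold, 6 of 6 members were in neither CM library, against 14.4% of 2588 other starts. From 5 to 6-fold 6 of 9 were, against 4.98% of 1786, and from 6 to 8-fold 6 of 10, against 1.33% of 3828. At 8-fold and over 0 of 4 were, against 0.327% of 6424. When every library was reduced to its 55777 peaks of lowest q-value, the first exons with a peak numbered 20 and 19 at hESC, 11 and 13 at MES, 15 and 8 at CP, and 11 and 10 at CM. On these lists the first exons in both libraries were 16 for hESC, 9 for MES, 8 for CP and 10 for CM, so hESC remained the highest and CM was not the lowest. Of the 16 at hESC, 8 were in neither CM library, against 1.75% of all such starts.

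**Figure D3:**
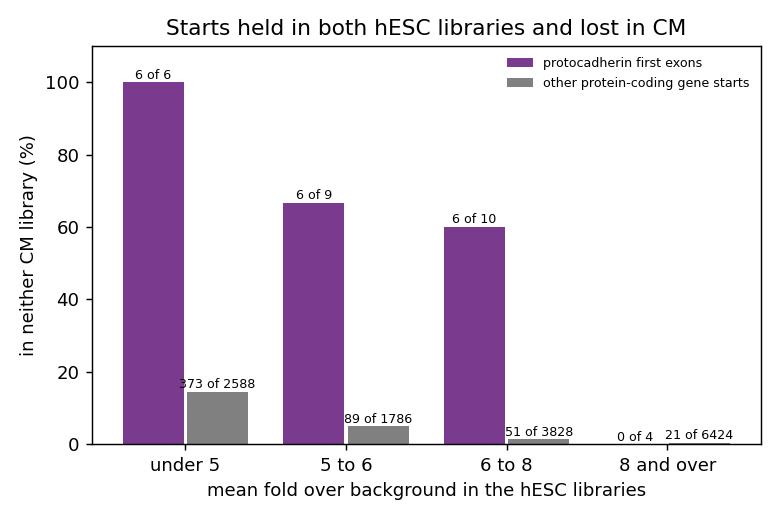
Percentage of starts open in both hESC libraries that had a peak in neither CM library (vertical axis), by the mean fold over background in hESC (horizontal axis), for protocadherin first exons and all other protein-coding gene starts, with the counts above the bars. The protocadherin bars stand at 6 of 6, 6 of 9, 6 of 10 and 0 of 4.

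Of the C-type genes, 4 had a start peak in all libraries and PCDHGC5 had none. The folds of single starts are given as called. Over the 28115 regions in all libraries, the median log2 fold was 2.562 and 2.636 in the CM libraries, below the 2.717 to 3.055 of the earlier stages. At PCDHAC1, the first of the alpha C-type exons, the fold was 9.25 and 8.99 at hESC, 9.42 and 9.70 at MES, 8.69 and 10.5 at CP, and 9.53 and 10.0 at CM. At PCDHGC3, the first C-type exon of gamma, it was 8.29 and 9.0 at hESC, 8.64 and 8.30 at MES, 8.18 and 10.9 at CP, and 8.67 and 9.96 at CM. As called, the CM mean was 107% and 108% of the hESC mean. The CM and hESC values overlapped at PCDHGC3. At PCDHAC1 the gap between them was smaller than the gap between the CP replicates. Centred on the library medians, CM minus hESC in log2 fold was 0.318 (SE 0.126) at PCDHAC1 and 0.325 (SE 0.147) at PCDHGC3. In the limma fit described below their adjusted p was 0.29 and 0.36. PCDHAC2 was lower, with 5.00 and 5.79 at hESC, 6.55 and 5.98 at MES, 6.18 and 6.53 at CP, and 4.35 and 4.64 at CM, so that both CM values were below all others. Centred on those medians, its CM minus hESC difference in log2 fold was -0.04 (SE 0.206). PCDHGC4 had 5.89 and 6.44 at hESC, 6.22 and 7.24 at MES, 6.73 and 9.50 at CP, and 5.07 and 7.22 at CM, and its CM values enclosed those of hESC. PCDHGC5, the last gene of the gamma cluster, had a start peak in none of the 8 libraries.

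In the beta cluster, whose genes are single units without constant exons, the highest start was that of PCDHB2. Its fold was 9.96 and 11.5 at hESC, 9.89 and 11.2 at MES, 9.61 and 11.4 at CP, and 9.33 and 7.91 at CM, with both CM values below the rest. After centring on the library medians, its CM minus hESC difference in log2 fold was -0.096 (SE 0.163). PCDHB15 went from 7.08 and 8.01 at hESC and 6.88 and 8.43 at MES to 5.77 and 5.58 at CP and 5.39 and 4.81 at CM. Its groups did not overlap between the earlier and the later stages, and its CM mean was 67.5% of that in hESC, the lowest of the 8 first exons present in all libraries. These are folds as called, and after centring the CM minus hESC difference of PCDHB15 in log2 fold was -0.35 (SE 0.223). PCDHB14, next to it, had 7.26 and 8.72 at hESC, 5.88 and 8.30 at MES, 4.91 and 5.81 at CP, and no peak in CM. Starts of other annotated genes lie in the same regions as those of PCDHB14 (ENSG00000279983), PCDHGB1 (ENSG00000280026), PCDHAC2 (ENSG00000279028), PCDHA12 (ENSG00000278915), PCDHA6 (ENSG00000279726), PCDHA13 (ENSG00000278901), PCDHB8 (ENSG00000279472) and PCDHB16 (ENSG00000279068), so these peaks cannot be assigned to one gene.

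Among ordinary alpha first exons only PCDHA4 was present in all 8 libraries. Its fold was 5.70 and 6.52 at hESC, 4.36 and 9.25 at MES, 5.52 and 6.20 at CP, and 5.37 and 5.56 at CM, so the MES replicates differed more than the stages did. In gamma, PCDHGB6 was the only ordinary first exon present in all libraries, with 7.03 and 6.66 at hESC, 7.30 and 7.43 at MES, 7.82 and 7.99 at CP, and 6.10 and 4.83 at CM. Both CM values were again the lowest as called. After centring on the library medians, which were lowest in CM, the CM minus hESC difference of PCDHGB6 in log2 fold was -0.11 (SE 0.228). Together with PCDHAC1, PCDHAC2, PCDHB2, PCDHB15, PCDHGC3 and PCDHGC4 these make up the 8 first exons present in every library, whereas 66.6% of all protein-coding starts were.

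Between these and the ones without a start peak, 29 first exons had a peak in 1 to 7 libraries, with folds from 3.36 to 10.2. A peak in 7 libraries was found at 3 of them, in 6 at 6, in 5 at 3, in 4 at 2, in 3 at 8, in 2 at 4 and in 1 at 3. Of the 3 in 7 libraries, PCDHA12 and PCDHGB7 lacked a peak in hESC replicate 1 alone and were in both CM libraries, and PCDHB10 lacked one in CM replicate 2. PCDHGB7 had 5.56 at hESC replicate 2, 6.16 and 7.42 at MES, 6.33 and 9.44 at CP, and 6.64 and 4.81 at CM, and PCDHA12 had 4.57 at hESC replicate 2, 5.02 and 5.00 at MES, 4.27 and 6.27 at CP, and 5.22 and 5.37 at CM. At PCDHGB7 the CM values lay on either side of the hESC value, and at PCDHA12 both lay above it. These 2, and PCDHB5 below, are named after their values were seen. Replicates of a stage often disagreed at weak starts, with 1 first exon in hESC replicate 1 alone and 6 in replicate 2 alone, 1 and 10 at MES, 6 and 2 at CP, and 3 and 0 at CM. The 10 seen in MES replicate 2 alone, a library of 156179 peaks against 108340 in replicate 1, included 9 that were open in both hESC libraries. PCDHB5 had 9.11 at hESC replicate 1 and 4.27 in replicate 2, so its hESC replicates were far apart.

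A peak within 500 bp of the start was found in no library at 16 first exons, against 18.7% of all protein-coding starts. They were PCDHA1, PCDHA5, PCDHA7, PCDHB4, PCDHB6, PCDHGA1, PCDHGA4, PCDHGA5, PCDHGA6, PCDHGA7, PCDHGA8, PCDHGA9, PCDHGA12, PCDHGB3, PCDHGB5 and PCDHGC5. Further inside the exon, PCDHGA4 had a peak of 4.09-fold in hESC replicate 2 and PCDHGA7 one of 3.95-fold in CP replicate 2. The longest stretch with a start peak in at most 1 library ran over 8 neighbouring genes from PCDHGA5 to PCDHGA9, of which 7 had none and PCDHGB4 had one in hESC replicate 2. Since the genes resemble each other and reads of low mapping quality were removed, the sequence around each start was checked for stretches of 75 bases that occur once in the genome. Among the 16, the median share of unique stretches within 500 bp of the start was 100%, 13 were fully unique and the lowest was 68.5%. Among first exons with a peak in 1 to 7 libraries the median was 97.8% and the lowest 62.0%.

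**Figure D4:**
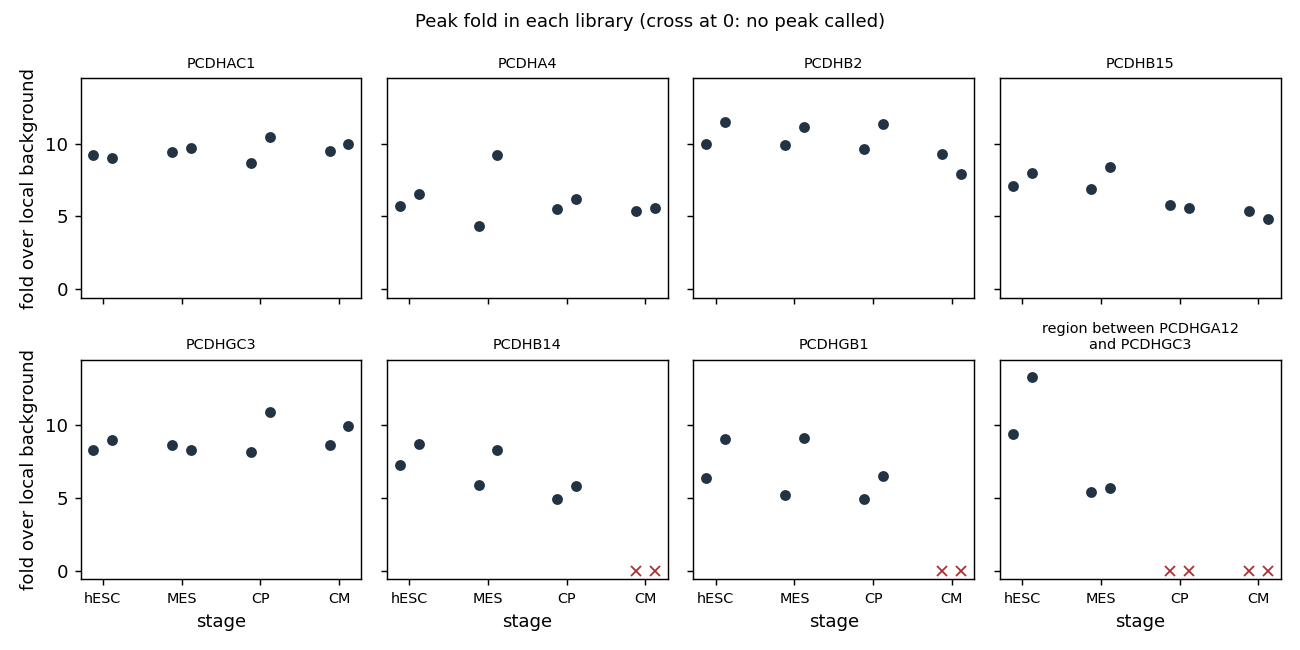
Fold over local background (vertical axis) in the 2 libraries of each stage (horizontal axis; replicate 1 left, replicate 2 right) for 7 first exons and the region between PCDHGA12 and PCDHGC3, with a cross at 0 where no peak was called. PCDHAC1 stays between 8.69 and 10.5, PCDHB15 ends at 5.39 and 4.81, PCDHB14 and PCDHGB1 have no peak in CM, and the region between the gamma genes has none in CP and CM.

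Summits lay further into the exon in the alpha cluster than in beta and gamma, a difference that was not tested. The highest peaks at gamma starts had their summit a median of 32 bp before the start (45 of 53 before it), and those at beta starts a median of 22 bp before it (41 of 63). At alpha starts the median was 301 bp after the start, and 24 of 63 lay more than 500 bp inside the exon. Counting every summit around the first exons, 34 of 105 in alpha lay 400 to 800 bp after the start, in 8 genes, against 0 of 65 in beta and 3 of 69, in 1 gene, in gamma. The 8 genes were PCDHA2, PCDHA4, PCDHA6, PCDHA8, PCDHA10, PCDHA11, PCDHA12 and PCDHA13. At PCDHAC1 the summit lay 296 to 338 bp inside the exon in all 8 libraries. Among the 13 ordinary alpha exons, 7 and 7 had a summit at 400 to 800 bp in the hESC libraries, 5 and 6 at MES, 3 and 3 at CP, and 2 and 1 at CM. Summits within 200 bp of the start were found at 4 and 5 of them in hESC, 4 and 6 at MES, 4 and 3 at CP, and 1 and 2 at CM. On the lists as deposited, both kinds of site were thus fewer in CM than in hESC. The CM lists also held fewer peaks in all. Summits were not counted on lists of equal length, so the part of peak number in this was not tested.

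**Figure D5:**
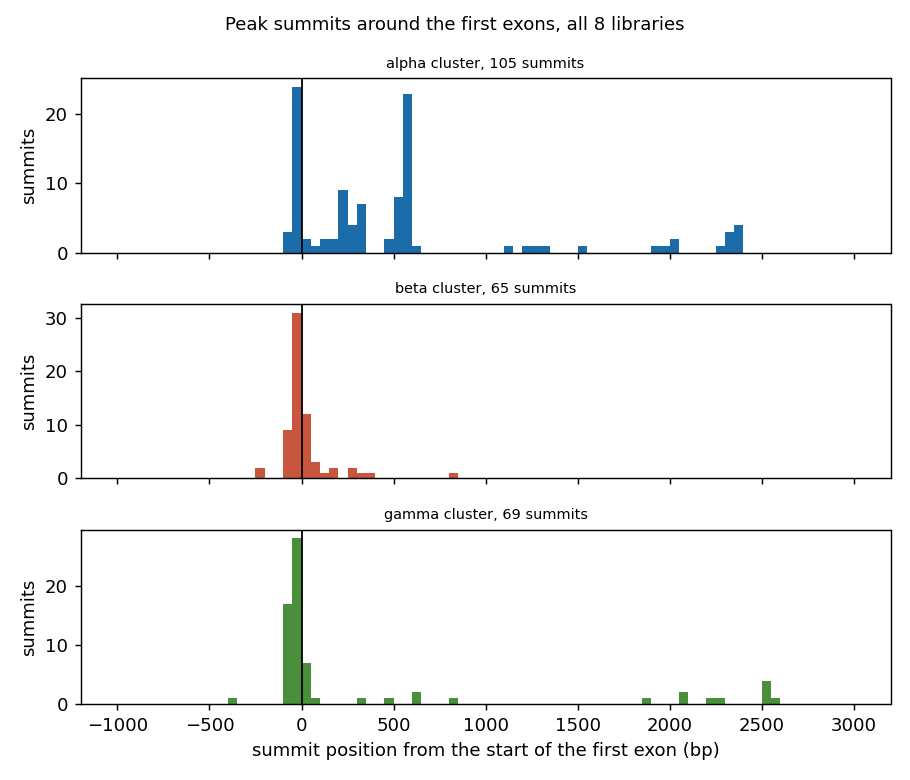
Number of peak summits (vertical axis, bins of 50 bp) by position from the start of the first exon in bp (horizontal axis), over all 8 libraries, for the alpha, beta and gamma clusters. Alpha summits form one group at the start and another near 400 to 800 bp, with 34 of 105 there, where beta has 0 of 65 and gamma 3 of 69.

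The alpha exons were then searched for the loose CTCF core described above, on both strands, 400 to 800 bp after the start, a search added after the data were seen. It was found in 8 of the 13 ordinary alpha exons (61.5%), in 0 of 16 beta and 0 of 22 gamma exons, and in 16.3% of 1737 protein-coding first exons of at least 800 bp. The window was the one in which alpha summits had been seen, and the alpha exons resemble each other. The 8 are therefore not independent finds. All 8 matches lay on the forward strand, 570 to 621 bases after the start, in the coding part of the exon. The stretches of 40 bases below (GRCh38, 5′ to 3′, forward strand, the match in capitals) are shown to compare PCDHA4 (chr5:140807630-140807669), PCDHA8 (chr5:140841764-140841803), PCDHA10 (chr5:140856488-140856527), PCDHA12 (chr5:140875915-140875954) and PCDHA13 (chr5:140882711-140882750), which had a summit there, with PCDHA7 (chr5:140834826-140834865), which had no peak.
PCDHA4: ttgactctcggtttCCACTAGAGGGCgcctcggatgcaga
PCDHA7: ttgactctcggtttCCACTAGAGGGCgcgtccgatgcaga
PCDHA8: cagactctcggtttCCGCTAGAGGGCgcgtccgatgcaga
PCDHA10: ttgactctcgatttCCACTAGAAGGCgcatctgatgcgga
PCDHA12: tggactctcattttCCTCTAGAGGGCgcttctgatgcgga
PCDHA13: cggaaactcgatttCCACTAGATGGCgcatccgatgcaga

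In the 5 genes with both a match and summits at 400 to 800 bp, the 20 summits lay 4 to 85 bp from the middle of the match, with a median of 35.5 bp. The match did not mark all exonic sites: PCDHA2, PCDHA6 and PCDHA11 had summits there and no match, and PCDHA5 and PCDHA7 had the match and no peak in any library. PCDHA9 had the match, with start peaks in 6 libraries and no summit at 400 to 800 bp. Over all 95 regions this core occurred within 200 bp around the summit in 12 (12.6%), against 8.88% of all regions of the series.

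Of the 95 regions of the window, 50 were present in both hESC libraries, 42 in both MES, 31 in both CP and 22 in both CM libraries. Of all 285909 regions of the series, 29.6%, 31.4%, 23.9% and 14.8% were present in both libraries of these stages. The window held more regions common to all libraries than the series did, with 18 of 95 against 9.83%, and fewer seen in a single library, with 31 against 40.7%. Of the 50 regions in both hESC libraries, 23 (46.0%) were in neither CM library, near the 45.6% of all regions. Of the 22 in both CM libraries, 0 were absent from hESC, against 21.3%. From stage to stage, 2 of 50, 5 of 42 and 5 of 31 regions were lost (13.4%, 19.5% and 26.5% of all regions), and 1 of 42, 0 of 31 and 1 of 22 regions of the later stage were absent from the earlier one (19.2%, 8.96% and 9.54%). The loss of regions was thus close to or below that of all regions of the series, and the larger loss stated above was one against gene starts.

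By place, 40 regions lay at member starts and 19 inside a first exon away from its start, of which 15 were seen in a single library. A further 19 lay between exons or genes, 10 at starts of non-coding genes or pseudogenes, 4 in the flank past the gamma cluster and 2 at its constant exons. The regions at member starts in both libraries numbered 31 at hESC, 22 at MES, 18 at CP and 11 at CM, and the 55 others 19, 20, 13 and 11. One other protein-coding gene has an open start inside the window, TAF7, which encodes a subunit of the general transcription factor TFIID. Its region (chr5:141320183-141321248), which also holds the start of ENSG00000288095, lies between beta and gamma and had 11.2 and 11.1-fold in hESC, 13.5 and 12.0 at MES, 12.0 and 10.5 at CP, and 11.3 and 9.17 at CM. The start of SLC25A2, a mitochondrial carrier, had no region.

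The highest region away from protein-coding starts (chr5:141039835-141041471) lay between the alpha and beta clusters, at the start of the non-coding gene ENSG00000288892. Its fold was 11.1 and 11.7 at hESC, 11.0 and 10.9 at MES, 11.4 and 13.7 at CP, and 10.8 and 12.0 at CM, so the stages overlapped. The next was 33246 bp past the last gamma first exon (chr5:141524558-141525334), with 12.6 and 10.4 at hESC, 11.5 and 12.4 at MES, 10.5 and 12.7 at CP, and 9.49 and 10.8 at CM. The stages overlapped there too. A region near the end of the window (chr5:141560715-141561196) ranged from 8.02 to 10.2 over the 8 libraries, and one at the start of DIAPH1-AS1 (chr5:141557653-141558161) from 3.79 to 6.40. The region at the start of ENSG00000272070, 4128 bp before PCDHGA1 (chr5:141326062-141326709), had 6.91 and 7.73 at hESC, 7.01 and 7.42 at MES, 7.26 and 7.37 at CP, and in CM no peak in replicate 1 and 5.37 in replicate 2. Each of these 5 regions was thus called in 7 or 8 libraries.

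One region of the gamma cluster was picked out after its values were seen. It lies between PCDHGA12 and PCDHGC3, 20404 bp before the latter (chr5:141455292-141455832), away from annotated exons and gene starts. Its fold was 9.43 and 13.3 at hESC and 5.43 and 5.67 at MES, with no peak in CP and CM. The hESC values lay above both MES values without overlap. On the scale described next, CM minus hESC was -1.47 in log2 fold (SE 0.217, limma adjusted p = 0.0938). The limma adjusted p was 0.00247 without hESC replicate 1, 0.0154 without hESC replicate 2 and 0.0274 without CM replicate 2, so the call depended on the libraries fitted. Each of these fits leaves a stage with 1 library, which is assumed to vary like the other groups.

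A test across all regions called 0 regions of the window after adjustment. So few regions of the whole series were called that 0 in the window is near their share. Log2 fold values were centred on the regions present in all 8 libraries, missing peaks and called peaks below a floor of 4.00-fold were both set to that floor, and limma was fitted to the 169532 regions with a peak in at least 2 libraries, 64 of the 95 among them. From hESC to CM, 0 of the 64 were called lower or higher at an adjusted p under 0.05, where 0.0956% and 0.0277% of all regions were. From hESC to MES 0 were called as well (0.104% of all regions lower, 0.0672% higher), and so it was from MES to CP (0.0543% and 0.0147%) and from CP to CM (0.0124% and 0.0236%). Before adjustment, 13 of the 64 were lower and 1 higher in CM than in hESC at p under 0.05, beside 12.7% and 4.96% of all regions, and 8 were lower in MES than in hESC, beside 6.52%. The median log2 difference of the 64 was -0.12 from hESC to CM and 0 over all regions. PCDHB14 differed by -0.98 (SE 0.213, limma adjusted p = 0.12, and 0.0455 without hESC replicate 1) and PCDHGB1, which had 6.36 and 9.08-fold in hESC, 5.20 and 9.11 at MES, 4.91 and 6.51 at CP and no peak in CM, by -0.91 (SE 0.309, limma adjusted p = 0.23). With the floor, these differences understate a change from a peak to none, and weak sites called in every library but below the floor show a difference of 0 or close to it. Over the tested regions of the window, the median from hESC to CM was -0.15 without hESC replicate 1 and -0.14 without hESC replicate 2. Without CM replicate 2 it was -0.13, and over all regions it was 0 in each of these fits. Fits without a library rest on the same assumption on the lone library.

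The 12 non-clustered protocadherins, adhesion proteins of the same family that are single genes elsewhere in the genome, are given beside the clusters. Of these, 9 had a start peak in both libraries of hESC, 10 at MES, 8 at CP and 7 at CM, and 7 had one in all 8 libraries (PCDH1, PCDH9, PCDH10, PCDH15, PCDH18, PCDH19 and PCDH20). A start peak was seen at all 12 in at least 1 library. PCDH9 ranged from 8.99 to 11.3-fold, and PCDH8, with 2.96 and 3.17 at hESC, 3.90 and 3.94 at MES, 4.02 at CP replicate 2 and 3.26 at CM replicate 1, was low throughout.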

How the data were processed

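Reads were aligned by the authors with BWA 0.7.13 (hg38). Only primary alignments over mapping quality 30 were kept, Picard marked the duplicates that were removed, and MACS2 2.1.0 called peaks in each library (no model, q-value 0.01, shift of 100 bp, extension to 200 bp). The deposited lists give, for each peak, the fold ratio over local background, −log10 of the p-value and of the q-value, a display score, which was not used, and the summit offset. A library with more reads passes the q-value threshold at weaker sites, and the lists hold no read counts. The peaks of replicates were not pooled. For the ATAC-seq libraries the labels number the replicates only and do not say whether they are separate cultures. The spread between them may therefore be partly technical.

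Peaks were merged over libraries with at least 1 shared bp. Starts came from the canonical transcripts of GENCODE 44. A region or start was present at a stage when both libraries had a peak, and of several peaks the highest fold was used. The pileup was recovered from fold and −log10 p for 100% of peaks. limma 3.58.1 (R 4.3.3) was fitted with trend and robust settings to centred log2 fold, with stages as groups, missing peaks and those below it at the 5th percentile, and Benjamini-Hochberg adjustment, and was tested on simulated data. Promoters came from RefSeq (GRCh38.p14), of which 47 of 53 matched by symbol. Named were the C-type genes, the 3 highest first exons per cluster, those in all or no libraries, and the 5 highest regions away from protein-coding starts. The members and lists were chosen with earlier results of these data known. Alternatives were windows of 250 and 1000 bp, other definitions of starts, a −log10 q cut of 5, merging over 200 bp, lists cut to equal length, either library of a stage, other scalings and floors, a replicate block and each library left out. Python 3.11.15, numpy 2.4.6, pandas 2.3.3, numba 0.67.0 and matplotlib 3.10.9 were used.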

Additional observations from a re-analysis of the deposited data

How the results depend on the processing

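With lists of equal length, the first exons present in both libraries numbered 16 in hESC, 9 in MES and 8 in CP, and those open in hESC and in neither CM library 8. The regions numbered 31, 19 and 18 at the same stages. With a peak in either library of a stage, 31 first exons were open in MES, and 80 regions were present in hESC and 37 in CM. In the other settings with all libraries these counts stayed within 1.5 times, and those of the other protocadherin genes did in all. Leaving out each library in turn gave 29 to 35 open first exons in hESC, 20 to 30 in MES, 16 to 22 in CP and 10 to 13 in CM, and 50 to 73, 42 to 56, 31 to 40 and 22 to 35 regions, of which the 35 at CM, without CM replicate 2, exceeded 1.5 times. The number of first exons lost from hESC to CM was 18 to 22.

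The number of regions past the limma test depended on the fit, and the cause was not tested. Shares over all regions in the same fit are given beside each count of the 64. Without centring, 11 were lower in CM than in hESC (10.1%). In MES against hESC 3 were lower (4.66%) and 1 higher (6.02%). In CP against MES 3 were lower (5.83%), and in CM against CP 1 was (1.3%). With the pileup over the genome mean background in place of the fold, 4 were lower (6.19%) and 1 higher (3.2%) in CM than in hESC. In MES against hESC 2 were lower (2.94%). With the floor at the 20th percentile 2 were lower in CM than in hESC (3.78%) and 2 in MES than in hESC (1.68%). Leaving out a library gave 0 to 11 lower and 0 to 5 higher for CM against hESC, 0 to 9 and 0 to 1 for MES against hESC, 0 to 2 and 0 to 1 for CP against MES, and 0 to 1 and 0 to 4 for CM against CP, with the lone library of a stage assumed to vary like the other groups. Over the alternatives the adjusted p of the region between PCDHGA12 and PCDHGC3 ranged from 0.00247 to 0.256, that of PCDHB14 from 0.0296 to 0.259 and that of PCDHGB1 from 0.121 to 0.41.

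The labels do not say that replicate numbers pair libraries. The correlation of replicate differences between stages, over regions in all libraries, was 0.129 for hESC and MES, 0.133 for hESC and CP and 0.192 for MES and CP, and with CM it was -0.12 for hESC, 7.36e-05 for MES and -0.00468 for CP. The libraries were not taken as paired. With the replicate block 0 regions were called in every contrast, and with the CM numbers crossed in the block, chosen after seeing the data, 0 were called as well. The lists hold no reads, so a weak site and a closed one cannot be told apart below the caller's threshold.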
